A study of Mus musculus with 17 samples.

Results

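The trophoblast regulators Cdx2, Elf5, Tfap2c, Hand1, Gata2 and Gata3 and the simple epithelial keratins Krt7, Krt8, Krt18 and Krt19 were chosen by name and followed through all 17 RNA-seq libraries of the series. All 10 have a row among the 20621 genes of the count table, and 9 of the 10 passed the filter on low counts (Elf5 did not), among 15365 genes tested. The cells were E14 mouse embryonic stem cells of 2 genotypes: RNAPII-mut ("mutant" from here on), in which the series title places a slowly elongating RNA polymerase II, and WT. The mutant's labelled genotype is slow/slow, and the labels do not give the substitution or the number of clones. Mutant and WT cells alike were cultured without feeders on gelatine, with 10% serum and 1000 U/mL LIF. Both received 2i, the MEK inhibitor PD0325901 at 1 uM and the GSK3 inhibitor CHIR99021 at 3 uM, for 1, 2 or 7 days, and the day 0 cells had none. There were 2 libraries in each of the 8 groups of genotype and day, except 3 for the mutant at day 1.

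Trophoblast is the outer lineage of the early embryo that forms the placenta. Cdx2, Elf5, Tfap2c, Gata3 and, later, Gata2 and Hand1 are transcription factors that set up this lineage or its descendants, and embryonic stem cells normally keep it closed. Keratins are intermediate filament proteins that assemble as pairs of a type II member (Krt7, Krt8) with a type I member (Krt18, Krt19), and this set is the one used by simple, single-layered epithelia, trophoblast included. Cdx2 is also a caudal-type gene of the posterior embryo, and Gata2 and Gata3 are also used in blood.

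Library totals lay between 47350441 and 56138844 counts, and levels are given as CPM, read counts scaled to library size after TMM normalisation. A count of 3 corresponded to 0.0503 to 0.0693 CPM, depending on the library. Polr2a, the largest subunit of RNA polymerase II, was at 456 to 746 CPM in the mutant and 462 to 885 CPM in WT, and counts per gene cannot show a substitution and so do not check the genotype labels. Elf5, a defining gene of trophoblast stem cells, had between 0 and 12 counts in every library and 60 in all. Tpbpa and Prl3d1, which mark spongiotrophoblast and trophoblast giant cells, had 0 counts in all 17 libraries, and Plac1 did not exceed 22. Pou5f1, the pluripotency factor, was at 1497 to 2430 CPM in the mutant and 949 to 2416 CPM in WT. Other trophoblast genes were present, which are not particular to that lineage. Eomes, also a mesendoderm factor, was at 2.13 to 16.1 CPM in the mutant and 2.93 to 28.2 CPM in WT. Tead4, a Hippo pathway factor of many tissues, was at 8.21 to 56.1 CPM in the mutant and 8.28 to 37.0 CPM in WT, and Ascl2 reached 2.03 CPM in the mutant and 5.95 CPM in WT. The named genes are therefore described as genes, not as a trophoblast population. Replicate 1 of WT days 0 and 1 stood apart, as did replicate 1 of WT day 2 to a lesser degree, with smooth muscle and stromal transcripts. Acta2, Tagln, Col1a1 and Col3a1 together made up 2.59 to 19.7 CPM in the 9 mutant libraries. In WT they made up 553, 967 and 142 CPM in replicate 1 of days 0, 1 and 2, and 3.26 to 5.34 CPM in the other 5 libraries. The 4 WT replicate 2 libraries carried primitive endoderm transcripts instead, with Gata4, Gata6, Sox17 and Dab2 summing to 41.8 to 122 CPM. The same 4 genes summed to 7.75 to 12.7 CPM in the mutant and 7.80 to 18.1 CPM in WT replicate 1. In bulk RNA, fewer cells of a type and less RNA per cell cannot be told apart. No label says that the replicates came from separate cultures, so the p-values measure only the spread between these libraries.

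**Figure D1:**
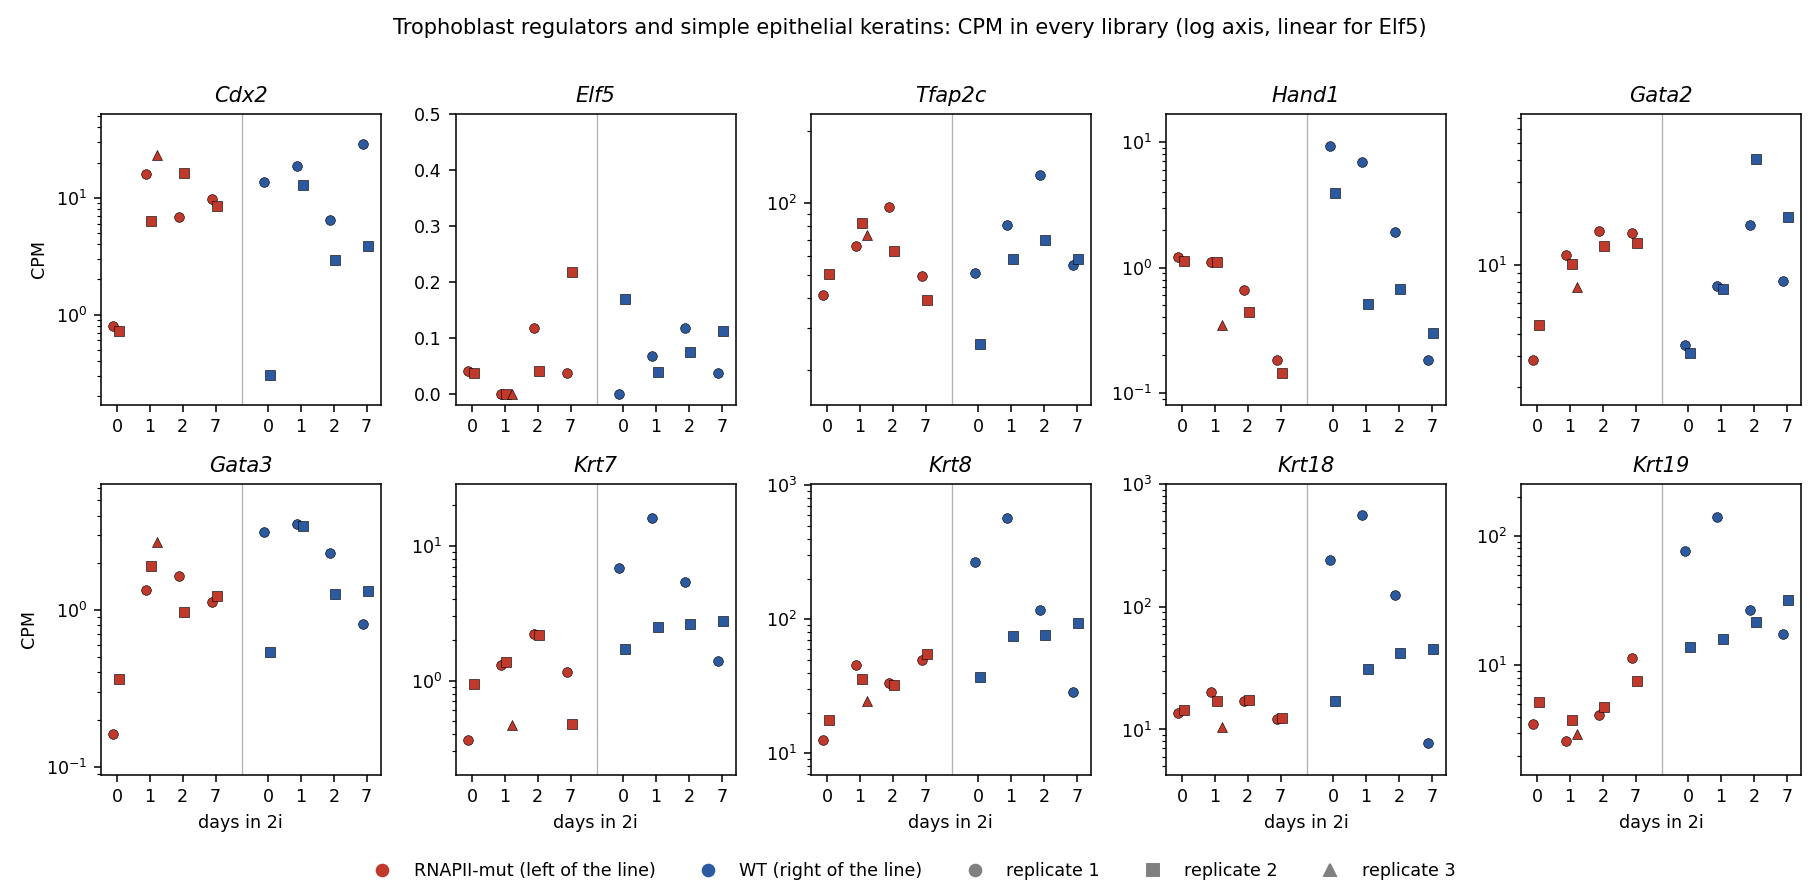
CPM of each of the 10 genes (log axis, linear for Elf5) in every library against days in 2i, mutant left of the grey line and WT right of it, with 1 symbol per replicate number. Replicate 1 of WT days 0 and 1 held the highest keratin levels, the mutant and WT libraries of Krt8 and of Krt18 overlapped at day 7, and Gata2 rose with 2i in both genotypes.

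The 4 keratins were lower in mutant than in WT cells when the 4 days were averaged. Krt19 was 7.77-fold lower, Krt18 6.50-fold, Krt8 4.21-fold and Krt7 4.04-fold. At day 7 the mutant and WT libraries of Krt8 and of Krt18 overlapped. When replicate 1 of WT days 0 and 1 was left out, which held the highest keratin levels, Krt19 was 3.88-fold, Krt7 2.32-fold, Krt18 2.24-fold and Krt8 2.06-fold lower. WT days 0 and 1 then rested on replicate 2 alone.

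Krt8 (chr15:101996698-102004482, minus strand, mm10), the type II partner that simple epithelia express earliest, and Krt18 (chr15:102028180-102032027, plus strand), its type I partner, are neighbours on chromosome 15, transcribed away from each other. Krt7 (chr15:101411043-101430313), the second type II member, lies on the same chromosome, and Krt19 (chr11:100140810-100148665), a small type I keratin, on chromosome 11. The 300 bases around the RefSeq starts of the 3 genes on chromosome 15 are shown because their levels followed each other from library to library in WT. Each runs 5′ to 3′ on the gene's strand, from 250 bases before the start to 50 after it, in build GRCm38.p6. Capitals mark matches, on either strand, to a set of 5 motifs. The letters GCCNNNGGC stand for AP-2 factors, the family of Tfap2c, and GATAAG for the family of Gata2 and Gata3. AP-1, a dimer of Fos and Jun proteins, was searched as TGANTCA in the same windows. The nuclear partners of beta-catenin, TCF and LEF, were searched as CTTTGA on both strands. For the box at which the TATA-binding protein sits, the letters were TATAAA. The windows are chr15:102004293-102004592 for Krt8, chr15:102027966-102028265 for Krt18 and chr15:101412153-101412452 for Krt7.
Krt8: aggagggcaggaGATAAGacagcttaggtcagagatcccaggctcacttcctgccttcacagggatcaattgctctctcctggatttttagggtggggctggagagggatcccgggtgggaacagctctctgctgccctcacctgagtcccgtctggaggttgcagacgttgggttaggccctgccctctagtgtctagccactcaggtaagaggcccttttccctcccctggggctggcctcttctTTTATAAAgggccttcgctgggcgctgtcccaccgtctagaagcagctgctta
Krt18: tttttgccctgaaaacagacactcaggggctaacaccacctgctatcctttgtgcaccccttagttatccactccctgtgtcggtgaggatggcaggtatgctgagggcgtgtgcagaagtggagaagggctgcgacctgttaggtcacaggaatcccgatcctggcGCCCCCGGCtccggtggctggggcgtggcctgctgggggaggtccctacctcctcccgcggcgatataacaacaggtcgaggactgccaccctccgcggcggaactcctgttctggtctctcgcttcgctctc
Krt7: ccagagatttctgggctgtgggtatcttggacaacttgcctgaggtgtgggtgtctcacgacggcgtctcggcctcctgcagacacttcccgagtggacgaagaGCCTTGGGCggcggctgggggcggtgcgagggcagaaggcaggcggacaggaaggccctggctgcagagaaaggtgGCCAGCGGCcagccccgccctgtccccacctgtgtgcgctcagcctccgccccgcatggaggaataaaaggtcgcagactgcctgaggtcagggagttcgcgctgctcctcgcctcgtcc
The Krt8 window held 1 GATA match, 238 bases before the start, and a TATA match across the annotated start itself, read on both strands. The Krt18 window held 1 AP-2 match 83 bases before the start, and the Krt7 window 2, at 146 and 70 bases before it. Of all 32851 RefSeq windows of this length, 16.6% held an AP-2 match, 7.44% a GATA, 7.81% an AP-1, 16.0% a TCF/LEF and 13.6% a TATA match. The 3 keratin windows were 58.0, 61.3 and 66.3% G and C in the order shown, against a median of 52.7% over all windows. A match is a stretch of letters and not a bound site.

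Krt8 was at 12.5 and 17.7 CPM in the mutant at day 0, 45.2, 36.0 and 24.5 CPM at day 1, 33.2 and 32.5 CPM at day 2, and 49.8 and 55.4 CPM at day 7. In WT it was at 267 and 37.2 CPM at day 0, 568 and 75.2 CPM at day 1, 116 and 76.7 CPM at day 2, and 28.8 and 93.9 CPM at day 7. The mutant libraries lay below both WT libraries at days 0, 1 and 2, and between them at day 7. Krt18 was at 13.5 and 14.3 CPM in the mutant at day 0, 20.0, 17.2 and 10.4 CPM at day 1, 17.1 and 17.5 CPM at day 2, and 12.1 and 12.3 CPM at day 7. The WT values were 239 and 17.2 CPM at day 0, 559 and 30.9 CPM at day 1, 125 and 42.1 CPM at day 2, and 7.73 and 44.9 CPM at day 7. Krt18 thus stayed within 10.4 to 20.0 CPM in the 9 mutant libraries, while the 8 WT libraries spread from 7.73 to 559 CPM.

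Krt19 had 3.53 and 5.26 CPM in mutant cells at day 0, 2.59, 3.80 and 2.95 CPM at day 1, 4.14 and 4.75 CPM at day 2, and 11.5 and 7.56 CPM at day 7. WT cells had 76.4 and 13.8 CPM at day 0, 140 and 15.9 CPM at day 1, 26.6 and 21.7 CPM at day 2, and 17.6 and 32.2 CPM at day 7. On each of the 4 days all mutant libraries lay below all WT libraries of that day. Krt7 was low throughout, at 0.361 and 0.949 CPM in mutant cells at day 0, 1.29, 1.36 and 0.466 CPM at day 1, 2.23 and 2.18 CPM at day 2, and 1.16 and 0.472 CPM at day 7. WT cells had 6.85 and 1.73 CPM at day 0, 16.0 and 2.51 CPM at day 1, 5.38 and 2.65 CPM at day 2, and 1.39 and 2.75 CPM at day 7. For Krt7, too, the mutant libraries lay below the WT libraries of the same day on all 4 days.

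Of the 9 members tested, 5 were lower in the mutant on average over days and 0 were higher, beside 7.49% of all 15365 genes called lower (edgeR's quasi-likelihood test, Benjamini-Hochberg adjusted p under 0.05 over all genes, two-sided). The 4 keratins were Krt19 (log2 -2.96, SE 0.417, adjusted p = 0.00111), Krt8 (-2.07, SE 0.433, adjusted p = 0.00918), Krt7 (-2.01, SE 0.442, adjusted p = 0.0117) and Krt18 (-2.70, SE 0.598, adjusted p = 0.0123). The fifth was Hand1, described with the regulators. Each of the 4 keratin calls held when any 1 of the 17 libraries was left out, with adjusted p up to 0.0470. With replicate 1 of WT day 1 alone left out, Krt18 was 3.69-fold lower (adjusted p = 0.0265 by edgeR), Krt19 5.22-fold, Krt8 2.93-fold and Krt7 2.91-fold. Leaving out replicate 1 of WT day 0 alone gave 3.93-fold for Krt18 (adjusted p = 0.0303 by edgeR). Without replicate 1 of both WT day 0 and WT day 1, the adjusted p by edgeR was 0.000185 for Krt19, 0.0177 for Krt8, 0.0419 for Krt7 and 0.0488 for Krt18. Leaving out replicate 1 of WT day 2 as well left 1 library in each of WT days 0, 1 and 2. The log2 differences were then -1.91 for Krt19, -1.06 for Krt7, -0.95 for Krt8 and -0.90 for Krt18. Krt7 and Krt18 were no longer called, in a fit that called a larger share of all genes than the main fit.

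On single days the test reached fewer members. At day 0, 0 of the 9 were called (7 had an unadjusted p under 0.05), beside 0.28% of all genes, and 4 were called by DESeq2 (Gata3, Krt7, Krt8 and Krt19), which called 4.75% of the genes to which it gave an adjusted p. At day 1, Krt19 was called at log2 -4.64 (SE 0.783, adjusted p = 0.0237), beside 0.312% of all genes called lower. Leaving out replicate 1 of WT day 1 gave -2.35 (adjusted p = 0.199 by edgeR), and leaving out replicate 1, 2 or 3 of the mutant at day 1 gave adjusted p of 0.144, 0.135 and 0.0937. With replicate 1 of both WT days 0 and 1 left out, the day 1 difference of Krt19 was log2 -2.35, which rests on replicate 2 alone in WT. The day 1 call of Krt19 was also lost in a fit of the mutant and WT day 1 libraries alone (adjusted p = 0.157) and with the replicate number as a block (log2 -4.36, adjusted p = 0.0768 by edgeR). With the block in WT alone it held (log2 -4.20, adjusted p = 0.00473 by edgeR), Krt7, Krt8 and Krt18 were called lower as well at day 1 (adjusted p = 0.0343, 0.0364 and 0.0489), and Krt19 at day 0 (log2 -3.01, adjusted p = 0.0333). That fit called 4.52% of all genes at day 1 and 3.75% at day 0. At days 2 and 7, 0 members were called by edgeR over all 17 libraries or by DESeq2. That edgeR fit had 2 and 0 members at an unadjusted p under 0.05 and called 0.0716% and 0.0976% of all genes. Without overlap between the libraries, 6 members lay lower at day 0 (23.4% of all genes did), 5 at day 1 (13.2%), 6 at day 2 (15.5%) and 4 at day 7 (23.8%), and Cdx2 alone lay higher, at day 2 (14.6%). With 2 or 3 libraries a group such separation is common, and the 4 day 7 members (Tfap2c, Hand1, Krt7, Krt19) had adjusted p of 0.629 to 0.870.

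**Figure D2:**
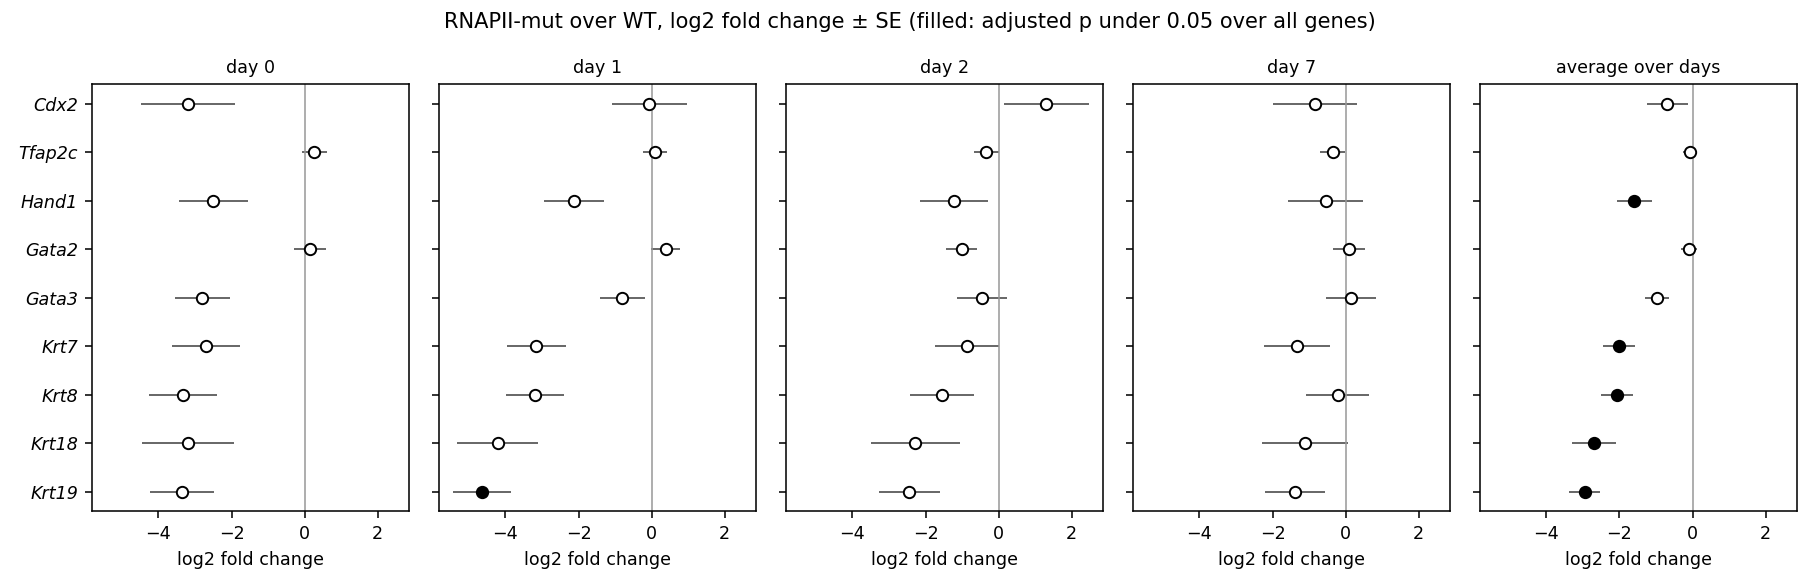
Log2 fold change of mutant over WT with its standard error for the 9 tested members, 1 panel per day and 1 for the average over days. Filled points passed an adjusted p of 0.05 over all genes: Krt19 at day 1, and Krt19, Krt18, Krt8, Krt7 and Hand1 on average.

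The WT libraries with the highest keratin levels also stood apart in markers of other cell types. Replicate 1 of WT days 1, 0 and 2, in that order, had the 3 highest levels of Krt8, Krt18 and Krt7 among the 17 libraries, and the same 3 had the highest sum of Acta2, Tagln, Col1a1 and Col3a1. Krt19 had its 2 highest levels in replicate 1 of WT days 1 and 0, followed by replicate 2 of WT day 7 at 32.2 CPM, a library with 5.34 CPM of the 4 stromal genes. Of the 18 tested genes on a longer stromal and smooth muscle list, 8 were lower in the mutant on average and 0 higher, beside 7.49% of all genes called lower. The summed level of that list, which several broadly expressed genes dominate, was 990 to 3021 CPM in the mutant and 1025 to 3107 CPM in WT. Primitive endoderm genes were lower too, 13 of 21 tested. In WT replicate 2, which carried those, Krt8 ran from 37.2 to 93.9 CPM and Krt18 from 17.2 to 44.9 CPM. A list of 20 mesoderm genes summed to 221 and 177 CPM in replicate 1 of WT days 0 and 1, and to 22.9 to 69.7 CPM in the other 15 libraries. The summed level of 16 pluripotency genes was lowest in the same 2 libraries, at 4515 and 4704 CPM, against 6539 to 9218 CPM in the others. The part of any of these cell types in the keratin difference was not tested. Across the 8 WT libraries the 6 pairs of keratins had Pearson's r of 0.90 to 0.98 in log2 CPM, and across the 9 mutant libraries -0.39 to 0.72. Over 15 libraries, without replicate 1 of WT days 0 and 1, r was 0.57 to 0.76. These libraries share days and genotypes, and the r values are descriptions. Over all 17 libraries the genes whose level was most like that of Krt18 were Ccdc80, a secreted matrix protein, and Grip1, a PDZ scaffold (Pearson's r 0.958 and 0.951, Spearman's rho 0.846 and 0.917). For Krt19 they were Vwa5a and Fhl2, a LIM-domain protein (r 0.939 and 0.932, rho 0.909 and 0.892), and for Krt7 Slc24a3, a cation exchanger, and Sox6 (r 0.912 and 0.903, rho 0.896 and 0.897).

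**Figure D3:**
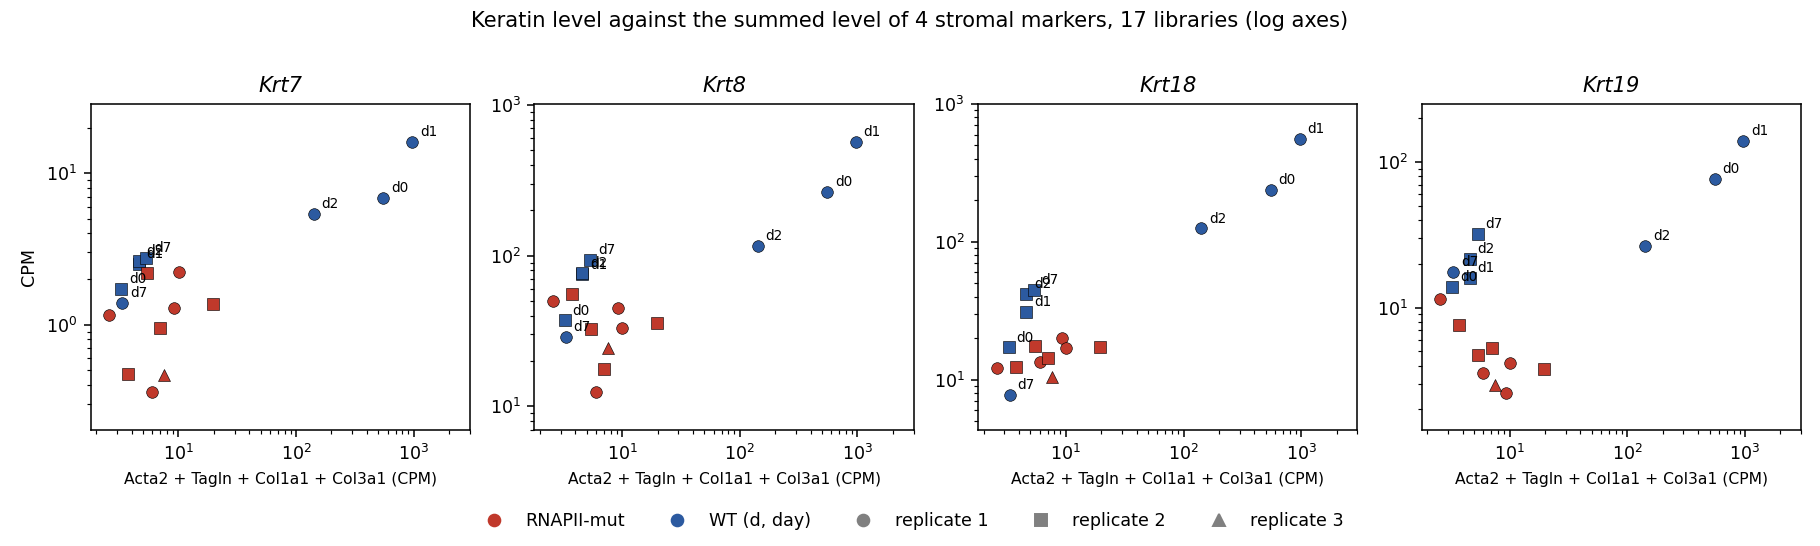
Level of each keratin (CPM, log axis) against the summed level of Acta2, Tagln, Col1a1 and Col3a1 (CPM, log axis) in 17 libraries, mutant in red and WT in blue with its day. Replicate 1 of WT days 0, 1 and 2 lies at the upper right, the other libraries have at most 19.7 CPM of the stromal genes, and there Krt19 is lower in the mutant than in WT.

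The partners Krt8 and Krt18 did not keep one ratio. Per kilobase of exon, Krt8 stood at 0.677 and 0.908 times the level of Krt18 in the mutant at day 0, at 1.65, 1.54 and 1.73 times at day 1, at 1.43 and 1.36 times at day 2, and at 3.02 and 3.30 times at day 7. In WT the ratio was 0.820 and 1.59 at day 0, 0.746 and 1.79 at day 1, 0.682 and 1.34 at day 2, and 2.74 and 1.53 at day 7. The ratios of the mutant day 7 libraries were the highest of the 17, and those of mutant day 0 and of WT replicate 1 at days 0 to 2 were the only ones below 1. Krt8 in the mutant was 3.48-fold higher at day 7 than at day 0, which the fit over all 17 libraries did not call (edgeR adjusted p = 0.203). It was called with only the mutant day 7 and day 0 libraries in the fit (log2 1.82, SE 0.198, adjusted p = 2.45e-06, in a fit that called 35.9% of all genes) and without replicate 1 of WT days 0 and 1 (log2 1.80, SE 0.463, adjusted p = 0.0193). Krt18 differed by log2 -0.19 in the same comparison (SE 1.16, adjusted p = 0.942). The ratio itself was not tested.

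A processed copy of Krt8 bears on how far its counts can be read. Krt8-ps (chr7:23357125-23358069, plus strand) shares 514 of the 1909 stretches of 50 bases in the Krt8 transcripts (26.9%). It lies inside the span of Nlrp4e (chr7:23301192-23362277), with 0 shared exonic bases in the GENCODE M21 annotation. Nlrp4e was the gene whose level followed Krt8 most closely (Pearson's r 0.993, Spearman's rho 0.973 over 17 libraries), and its counts were 16.7 to 24.5% of those of Krt8 in every library. The treatment of reads that fit several places, and the annotation counted, are not given in the sources used here. The CPM of Krt8 spanned a 45.5-fold range over these libraries. Whether reads of Krt8 were counted for Nlrp4e was not tested. Strand use in counting is not stated either, and antisense genes overlap exons of Krt8 (101 bases), Krt7 (77 bases) and Gata3 (155 bases). On the same strand as Gata3, 9230102O04Rik shares 77 exonic bases with it and has no row in the count table.

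**Figure D4:**
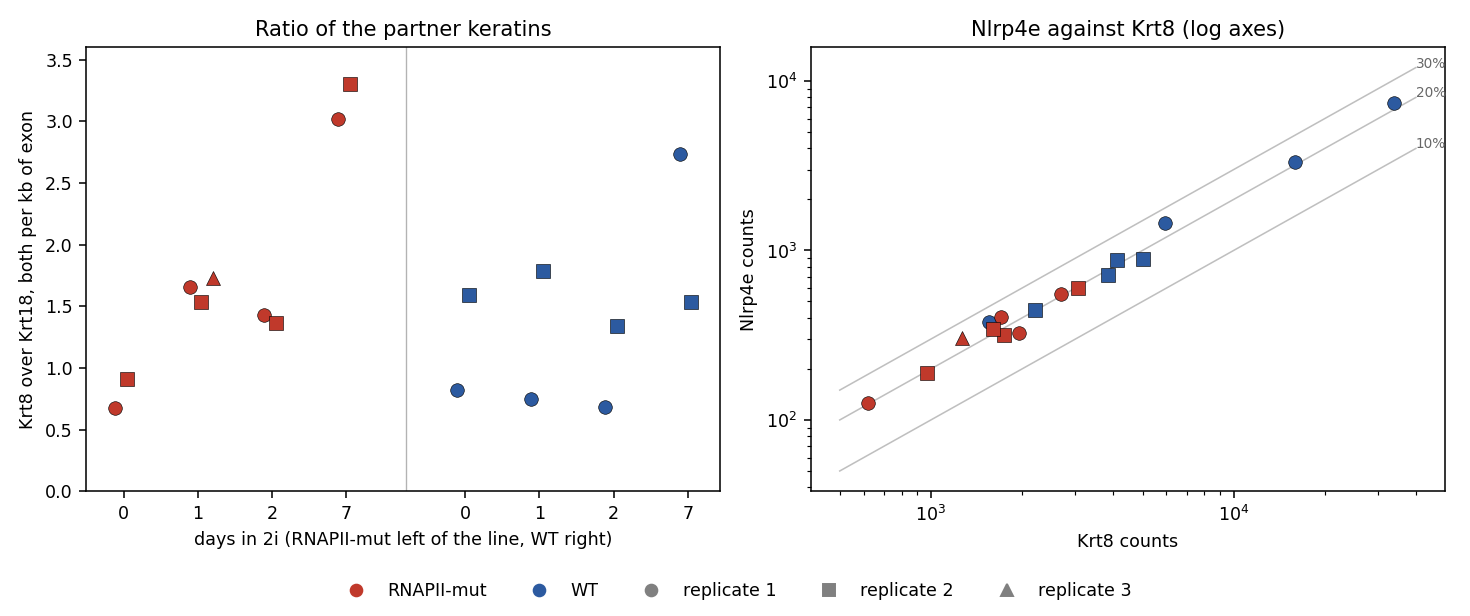
Left, the ratio of Krt8 to Krt18, each per kilobase of exon, by day in 2i, mutant left of the grey line and WT right of it. Right, Nlrp4e counts against Krt8 counts in the 17 libraries (log axes) with lines at 10, 20 and 30%; all libraries lie between 16.7 and 24.5%.

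Krt7, Krt8 and Krt18 lie on chromosome 15, where 613 tested genes had a median log2 difference of -0.26 between mutant and WT on average over days, against -0.03 over all genes. The median of chromosome 15 was between -0.28 and -0.24 on each of the 4 days. The 3 keratins were at log2 -2.01 to -2.70 on average over days, values that include the WT libraries with the highest keratin levels. Krt19, at log2 -2.96, lies on chromosome 11, where 1243 tested genes had a median of -0.11. The part of a shift of whole chromosomes in the keratin difference was not tested.

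Of the other epithelial and filament genes, some passed the test between genotypes on average over days, in both directions, beside 12.8% of all genes called in either direction. Of 29 further keratin genes, 20 were tested. On average over days Krt17, a keratin of stressed and basal epithelia, was higher in the mutant (log2 1.91, SE 0.295, edgeR adjusted p = 0.00188), and Krt20, of intestinal and urothelial epithelia, was lower (adjusted p = 0.0318), at 0 to 0.194 CPM in the mutant and 0 to 1.07 CPM in WT. The median of the 20 was log2 0.07, against -0.03 over all genes. Among 30 genes of simple epithelium (junction, polarity and epithelial splicing genes), Anxa3, a calcium-dependent membrane-binding protein (log2 -2.21, adjusted p = 0.0111), and Dsc2, a desmosomal cadherin (log2 -2.11, adjusted p = 0.0100), were lower. Pkp2, a desmosomal plaque protein, was higher (log2 0.86, adjusted p = 0.0213), and the list's median was -0.23. The summed level of the 30 genes was highest in the libraries that led in Krt8, Krt18 and Krt7, at 3006, 2925 and 2259 CPM in replicate 1 of WT days 0, 1 and 2. It was 1427 to 2245 CPM in the mutant and 1342 to 2246 CPM in the other 5 WT libraries. At day 7, 6 of the 30 were lower than at day 0 in the mutant and 6 in WT, where 1 was higher. The list medians were log2 -0.85 in the mutant and -0.69 in WT. Of all genes, 14.2% in the mutant and 12.7% in WT were called in either direction. Esrp1, an epithelial splicing factor, changed by log2 -6.68 in the mutant (adjusted p = 0.00695) and -4.68 in WT (adjusted p = 0.0285), and Grhl2, an epithelial transcription factor, by -3.40 in the mutant (adjusted p = 0.00588) and -2.19 in WT (adjusted p = 0.0436). Cdh1, the epithelial cadherin that stem cells also need, was at 350 to 837 CPM in the mutant and 288 to 806 CPM in WT. Of 19 other intermediate filament and linker genes 3 were lower in the mutant, among them Lmna, a nuclear lamin (log2 -0.79, adjusted p = 0.00897), and Vim, vimentin (log2 -0.51, adjusted p = 0.0123), and Nefh, a neurofilament subunit, was higher (log2 0.74, adjusted p = 0.00409). The summed level of this list was highest in WT day 0 (1876 and 1631 CPM) and in replicate 1 of WT day 1 (1537 CPM). It was 1073 to 1393 CPM in the other 5 WT libraries, within the mutant range of 984 to 1405 CPM.

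Among the regulators, Gata2 rose with 2i in both genotypes. Gata2 (chr6:88193891-88207032, plus strand), a zinc-finger factor of trophoblast giant cells and blood, was at 2.83 and 4.49 CPM in the mutant at day 0, 11.4, 10.2 and 7.44 CPM at day 1, 15.6 and 12.9 CPM at day 2, and 15.2 and 13.4 CPM at day 7. In WT it was at 3.48 and 3.10 CPM at day 0, 7.58 and 7.26 CPM at day 1, 16.9 and 40.7 CPM at day 2, and 8.06 and 18.9 CPM at day 7. All libraries of each later day lay above those of day 0 in both genotypes, and day 0 had the lowest levels of both. With 2 or 3 libraries a group such separation is common, and its share over all genes is not given here for days. In the mutant it was 3.89-fold higher at day 2 than at day 0 (log2 1.96, SE 0.449, edgeR adjusted p = 0.0332) and 3.91-fold at day 7 (log2 1.97, SE 0.449, adjusted p = 0.0116). In WT it was 8.74-fold higher at day 2 (log2 3.13, SE 0.468, adjusted p = 0.00641) and 4.09-fold at day 7 (log2 2.03, SE 0.450, adjusted p = 0.0120). At day 1 the values were log2 1.40 in the mutant (adjusted p = 0.136) and 1.17 in WT (adjusted p = 0.435 by edgeR). At day 1, 0 members were called by edgeR in either genotype, beside 1.41% of all genes in the mutant and 0.202% in WT. There 3 and 2 members had an unadjusted p under 0.05, and DESeq2 called 3 (Cdx2, Gata2 and Gata3) in the mutant and 0 in WT, beside 5.34% and 2.27% of the genes to which it gave an adjusted p.

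Gata2 was the one member called higher at each of those times, beside 1.71% of all genes called higher in the mutant at day 2, 7.2% at day 7, 1.16% in WT at day 2 and 6.62% at day 7. In the mutant the day 2 call was lost without any 1 of 7 libraries: either library of day 0 (adjusted p = 0.313 and 0.121), of day 2 (0.177 and 0.122) or of day 7 (0.0560 and 0.0558), or replicate 2 of day 1 (0.0532). Its day 7 call was lost without replicate 1 of day 0 (adjusted p = 0.120) or replicate 1 of day 7 (0.0667). In WT the day 2 call was lost without replicate 2 of day 0 (adjusted p = 0.0505) or of day 2 (log2 2.36, adjusted p = 0.0545). The WT day 7 call was lost without replicate 1 or 2 of day 0 (adjusted p = 0.0666 and 0.0597) or replicate 2 of day 7 (log2 1.30, adjusted p = 0.116), and without replicate 1 of both WT days 0 and 1 (adjusted p = 0.0600). Both WT calls were lost in fits of the WT day and day 0 libraries alone (log2 3.11, adjusted p = 0.365 at day 2, and log2 2.02, adjusted p = 0.134 at day 7), which called 0 and 0.781% of all genes. The lowest of the log2 values in the left-out fits was 1.30. Between genotypes, Gata2 differed by log2 -0.10 on average (SE 0.212, edgeR adjusted p = 0.818). By day the difference was log2 0.15, 0.38, -1.01 and 0.09 at days 0, 1, 2 and 7 (edgeR adjusted p = 0.916, 0.728, 0.787 and 0.958). In the differences of response at days 1, 2 and 7, the main edgeR fit over 17 libraries called 0 members and 0 other genes. In those 3 tests 0, 2 and 2 members had an unadjusted p under 0.05, and 118, 366 and 1178 of all genes did. DESeq2 called 0 members in each and 0, 0 and 73 genes. With the replicate block in WT alone, edgeR called 14 genes in the day 7 difference. Adtrp, a membrane-bound hydrolase, and Creg1, a secreted glycoprotein, had the levels most like those of Gata2 (Pearson's r 0.908 and 0.903, Spearman's rho 0.862 and 0.868 over 17 libraries).

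Cdx2 (chr5:147300805-147307270, minus strand), the homeobox factor that specifies trophectoderm and later patterns the posterior embryo, was low in the mutant at day 0 and higher at each later day. It was at 0.803 and 0.730 CPM at day 0, 15.9, 6.27 and 23.2 CPM at day 1, 6.83 and 16.3 CPM at day 2, and 9.79 and 8.58 CPM at day 7. WT had 13.7 and 0.304 CPM at day 0, 18.8 and 12.8 CPM at day 1, 6.41 and 2.95 CPM at day 2, and 28.8 and 3.86 CPM at day 7. The 2 WT day 0 libraries differed 45.0-fold, and the higher of them was the one with T, the mesoderm regulator, at 113 CPM. The 7 later mutant libraries were all above both day 0 libraries, a separation whose share over all genes is not given here. The fit over 17 libraries gave log2 4.30 at day 1 (SE 1.29, edgeR adjusted p = 0.139), 3.91 at day 2 (SE 1.31, adjusted p = 0.146) and 3.58 at day 7 (SE 1.29, adjusted p = 0.0846). It passed the test on all 3 days by DESeq2, in fits of the mutant day and day 0 libraries alone, and without replicate 1 of WT days 0 and 1, where the adjusted p by edgeR was 0.0245, 0.0288 and 0.0174. In WT the change from day 0 was log2 1.17, -0.58 and 1.22 at days 1, 2 and 7 (adjusted p = 0.886, 0.830 and 0.506). Without replicate 1 of WT days 0 and 1 the WT change at day 7 was 5.74 (SE 1.38, adjusted p = 0.0274), which rests on replicate 2 alone at day 0.

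Sp5, a zinc-finger factor, and T, the mesoderm regulator, were the tested genes whose level was most like that of Cdx2 over the 17 libraries (Pearson's r 0.959 and 0.897, Spearman's rho 0.924 and 0.826 in log2 CPM). The windows of the starts of Cdx2 and of the downstream start of Gata2 are shown because Cdx2 had the largest increase over day 0 among the regulators, though not past the test, and Gata2 was the one called higher. They are chr5:147307200-147307499 (minus strand) and chr6:88198414-88198713 (plus strand) in GRCm38.p6, with capitals as above.
Cdx2: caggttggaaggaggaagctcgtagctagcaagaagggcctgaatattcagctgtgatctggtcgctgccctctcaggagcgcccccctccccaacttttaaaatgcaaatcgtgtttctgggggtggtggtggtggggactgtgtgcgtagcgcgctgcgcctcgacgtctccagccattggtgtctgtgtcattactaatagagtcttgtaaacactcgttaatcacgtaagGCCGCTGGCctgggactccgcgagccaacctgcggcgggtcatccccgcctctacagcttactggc
Gata2: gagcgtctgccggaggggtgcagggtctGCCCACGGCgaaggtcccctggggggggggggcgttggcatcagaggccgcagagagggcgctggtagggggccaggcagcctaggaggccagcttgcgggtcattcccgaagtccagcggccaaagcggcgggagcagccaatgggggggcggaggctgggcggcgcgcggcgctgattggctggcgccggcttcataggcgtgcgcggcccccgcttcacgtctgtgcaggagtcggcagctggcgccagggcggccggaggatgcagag
The Cdx2 window held 1 AP-2 match, 16 bases before the start, and the Gata2 window 1, 222 bases before it. The Gata3 window held 3 AP-2 matches, and those of the 2 Elf5 starts and of the upstream Gata2 start none. TCF/LEF letters were found in 1 Elf5 window among the 9 windows of the 7 members matched, and AP-1 letters in none of the 9. The windows of Tfap2c, Hand1 and Krt19 were not analysed here.

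Gata3 (chr2:9857078-9890034, minus strand), a trophectoderm factor that acts beside Cdx2, stayed under 4 CPM in every library. The mutant had 0.161 and 0.365 CPM at day 0, 1.34, 1.90 and 2.72 CPM at day 1, 1.64 and 0.971 CPM at day 2, and 1.13 and 1.24 CPM at day 7. WT had 3.15 and 0.541 CPM at day 0, 3.54 and 3.41 CPM at day 1, 2.31 and 1.27 CPM at day 2, and 0.814 and 1.31 CPM at day 7. In the mutant every later library was above both day 0 libraries, a separation whose share over all genes is not given here. The change was log2 2.90 at day 1 (SE 0.724, edgeR adjusted p = 0.0752), 2.30 at day 2 (SE 0.744, adjusted p = 0.131) and 2.15 at day 7 (SE 0.742, adjusted p = 0.0723). Like Cdx2, it passed on all 3 days by DESeq2 and without replicate 1 of WT days 0 and 1 (adjusted p by edgeR of 0.0178, 0.0382 and 0.0217). Between mutant and WT it differed by log2 -2.79 at day 0 (SE 0.751, adjusted p = 0.133) and by -0.98 on average (SE 0.340, adjusted p = 0.0802). Chst2, a carbohydrate sulfotransferase, and Edn1, endothelin, had the most similar levels (Pearson's r 0.931 and 0.882, Spearman's rho 0.799 and 0.821).

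Hand1 (chr11:57828705-57832818, minus strand), a basic helix-loop-helix factor of trophoblast giant cells and cardiac mesoderm, fell in WT over the course of 2i. The mutant had 1.20 and 1.13 CPM at day 0, 1.11, 1.11 and 0.350 CPM at day 1, 0.664 and 0.445 CPM at day 2, and 0.185 and 0.145 CPM at day 7. WT had 9.25 and 3.92 CPM at day 0, 6.90 and 0.510 CPM at day 1, 1.92 and 0.672 CPM at day 2, and 0.185 and 0.300 CPM at day 7. The lowest libraries were those of day 7 in both genotypes, from 0.145 to 0.300 CPM, and the mutant and WT libraries there were at most 10 and 16 counts. In WT, day 7 was 26.9-fold lower than day 0 (log2 -4.75, SE 1.07, edgeR adjusted p = 0.0128), beside 6.1% of all genes called lower. That call was lost without replicate 1 of WT day 0 (log2 -4.00, adjusted p = 0.0607) or replicate 1 or 2 of WT day 7 (adjusted p = 0.0934 and 0.0693), and held without replicate 1 of both WT days 0 and 1 (adjusted p = 0.00975). A fit of the WT day 7 and day 0 libraries alone also lost it (log2 -4.77, adjusted p = 0.0615 by edgeR). With replicate 1 of WT days 0 and 1 left out, WT day 0 rested on replicate 2 alone. At day 2 the WT change was called with the replicate block in WT alone (log2 -2.41, adjusted p = 0.0497 by edgeR). In the mutant the day 7 value was log2 -2.81 (SE 1.02, adjusted p = 0.0865), and it passed by DESeq2 and without replicate 1 of WT days 0 and 1 (adjusted p = 0.0169 by edgeR). The difference between these responses was log2 1.95 (SE 1.39, adjusted p = 0.682).

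Between genotypes Hand1 was 3.02-fold lower in the mutant on average (log2 -1.59, SE 0.469, edgeR adjusted p = 0.0415). The call was lost when any 1 of 14 of the 17 libraries was left out (adjusted p = 0.0536 to 0.125), the exceptions being replicate 2 of WT days 0, 1 and 2. With replicate 1 of WT days 0 and 1 left out the difference was log2 -0.69 (SE 0.352, adjusted p = 0.225). Dusp5, a nuclear phosphatase acting on ERK, and Obsl1, a cytoskeletal adaptor, had the most similar levels over the 17 libraries (Pearson's r 0.933 and 0.931, Spearman's rho 0.934 and 0.922).

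Tfap2c (chr2:172549593-172558622, plus strand), an AP-2 factor of trophoblast stem cells and germ cells that naive stem cells also express, was the most abundant of the 6 regulators. The mutant had 41.2 and 50.6 CPM at day 0, 66.2, 81.9 and 73.1 CPM at day 1, 95.9 and 63.0 CPM at day 2, and 49.6 and 39.1 CPM at day 7. WT had 50.9 and 25.8 CPM at day 0, 80.4 and 58.0 CPM at day 1, 130.2 and 69.8 CPM at day 2, and 54.7 and 58.5 CPM at day 7. Days 1 and 2 were above day 0 without overlap in both genotypes, a separation that is common with so few libraries a group. The edgeR adjusted p was 0.384 and 0.296 at days 1 and 2 in the mutant and 0.502 at day 1 in WT. In the mutant day 7 overlapped day 0 (log2 -0.05), and in WT both day 7 libraries were above both of day 0. The largest of these changes, WT day 2 over day 0, was log2 1.38 (SE 0.350, edgeR adjusted p = 0.0601, DESeq2 adjusted p = 0.00721). It was called with the replicate number as a block (adjusted p = 0.0409 by edgeR), and with the block in WT alone (adjusted p = 0.00616). Between genotypes Tfap2c differed by log2 -0.08 on average (SE 0.168, adjusted p = 0.805). Chd3, a chromatin remodeller, and Uck2, a uridine-cytidine kinase, were most like it (Pearson's r 0.856 and 0.823, Spearman's rho 0.779 and 0.819).

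**Figure D5:**
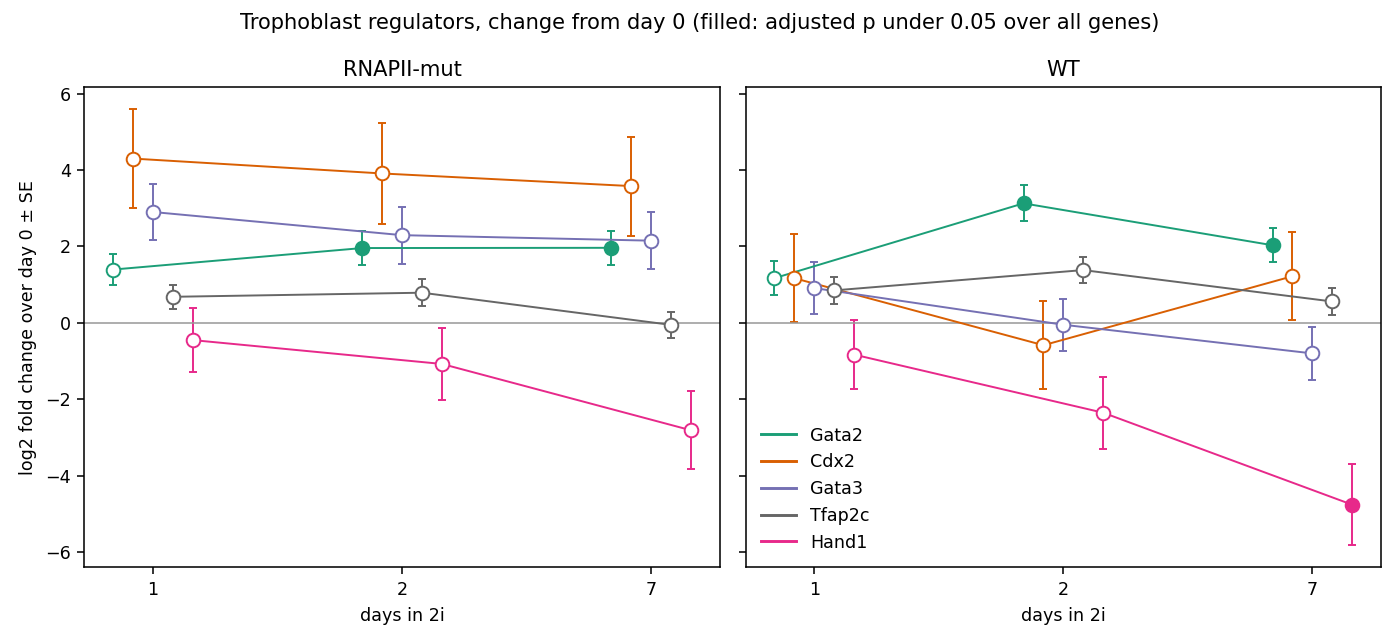
Log2 fold change over day 0 of the same genotype, with its standard error, at 1, 2 and 7 days of 2i for Gata2, Cdx2, Gata3, Tfap2c and Hand1, mutant left and WT right. Filled points passed an adjusted p of 0.05 over all genes: Gata2 at days 2 and 7 in both genotypes and Hand1 at day 7 in WT.

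Elf5 (chr2:103411688-103450989, plus strand), the ETS factor that closes the trophoblast stem cell circuit with Cdx2, was at 0 counts in 4 libraries, the 3 of the mutant at day 1 and replicate 1 of WT day 0. It reached 0.218 CPM in replicate 2 of the mutant at day 7, which is 12 counts, and 0.169 CPM in replicate 2 of WT day 0. It was below the filter, so no difference was tested.

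Per kilobase of exon, the median level over the 17 libraries was highest for Krt8 (23.1 CPM per kb), followed by Tfap2c (15.9), Krt18 (12.0), Krt19 (6.18), Cdx2 (3.79) and Gata2 (1.88). Hand1 (0.336), Gata3 (0.330) and Krt7 (0.245) followed, and Elf5 was last (0.00683 CPM per kb). The members' ranges over libraries overlapped between neighbours in this order, except Elf5, whose highest level (0.0371) was below the lowest of Krt7 (0.0512), its neighbour, and of Gata3 (0.0404). The order differed between genotypes. In the mutant the medians were 17.13 CPM per kb for Tfap2c, 16.97 for Krt8, 9.96 for Krt18, 3.79 for Cdx2, 2.23 for Krt19 and 2.11 for Gata2. In WT they were 43.6 CPM per kb for Krt8, 30.3 for Krt18, 15.8 for Tfap2c, 13.03 for Krt19, 4.24 for Cdx2 and 1.45 for Gata2. Exon lengths are unions over GENCODE M21 transcripts, which for Krt7 came to 7049 bases. A union longer than the transcripts in use lowers the level per kilobase, and exon use was not measured.

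Relatives and inputs of the regulators gave a mixed picture. Beside 7.49% of all genes called lower on average, 5 of 27 further trophoblast genes tested were lower in the mutant and 0 higher. Among them were Rhox5, an X-linked homeobox gene (log2 -2.72, edgeR adjusted p = 0.000958), Cited1, a transcriptional coregulator (-2.26, adjusted p = 0.00669), Gcm1, the labyrinth factor (-2.18, adjusted p = 0.00239), and Plet1, a surface marker of early trophoblast (-2.11, adjusted p = 0.00186). Gcm1 was low throughout, with 2 to 60 counts per library. It was at 0.0363 to 0.843 CPM in the mutant and 0.148 to 1.005 CPM in WT, ranges that overlapped. The list's median was log2 -0.40, against -0.03 over all genes. Its summed level was 1658 to 2252 CPM in the mutant and 1836 to 2209 CPM in WT. That sum includes Esrrb, which is also on the list of pluripotency genes, and so is not a measure of trophoblast. From day 0 to day 7, Tfap2a, the AP-2 relative of Tfap2c, rose in both genotypes, with log2 3.78 in the mutant (adjusted p = 0.000979) and 3.57 in WT (adjusted p = 0.00205). Fgfr2, the FGF4 receptor of trophoblast stem cells, fell in both, with log2 -3.81 in the mutant (adjusted p = 0.00351) and -3.73 in WT (adjusted p = 0.00570).

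Among 17 tested GATA, AP-2, caudal and ETS relatives, Cdx1, the caudal relative of Cdx2, rose on every later day in both genotypes. Its change was log2 4.34, 5.16 and 4.48 at days 1, 2 and 7 in the mutant (adjusted p = 0.00362, 0.00171 and 0.000521 by edgeR) and 3.84, 4.14 and 4.25 in WT (adjusted p = 0.0210, 0.00413 and 0.00107). In the mutant 3 of the 17 were lower on average, beside 7.49% of all genes called lower. Among the 3 were Gata6, a primitive endoderm factor (log2 -3.29, edgeR adjusted p = 0.00973), and Elf4, an ETS factor (-0.97, adjusted p = 0.00599). Tal1, a blood regulator, was higher (log2 1.55, adjusted p = 0.00773). Gata6 was at 0.401 to 0.703 CPM in the mutant. In WT it was at 1.24, 1.65, 0.665 and 0.296 CPM in replicate 1 at days 0, 1, 2 and 7. WT replicate 2 had 28.2, 8.52, 6.27 and 4.61 CPM on the same days.  Of 20 BMP pathway genes, 4 were lower and 2 higher in the mutant on average, beside 12.8% of all genes called in either direction. Bmp2 and Nog, a ligand and an antagonist, were among the lower (log2 -3.22 and -3.13, adjusted p = 0.00888 and 0.00602), and Id1, a BMP target, was higher (log2 1.07, adjusted p = 0.000958). Id1 fell at day 7 in both genotypes, with log2 -3.11 in the mutant (adjusted p = 0.000129) and -4.65 in WT (adjusted p = 7.26e-05), as did Bmp4, a BMP ligand, with log2 -2.38 in the mutant (adjusted p = 0.00358) and -2.26 in WT (adjusted p = 0.00655). Hippo, TEAD and Notch are pathways that act on Cdx2 in trophectoderm. Beside 7.49% of all genes called lower on average, 3 of 18 genes of these pathways were lower and 0 higher. These were Cyr61 (4.01-fold lower), Wwtr1 (1.52-fold) and Amotl2 (1.59-fold), with adjusted p by edgeR of 0.00889, 0.0125 and 0.0482.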

How the data were processed

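The 17 libraries were sequenced from total RNA of E14 cells. The deposited table holds raw read counts per gene, made by the authors. STAR, deepTools and mm10 are named in the submitters' processing notes. The counting tool, annotation, strand setting and treatment of reads with several places are not given in the sources used here. Of the nonzero counts, 74.1% were even. Groups came from the labels, and all 17 columns were used.

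Counts were tested with edgeR 4.0.16 (R 4.3.3) in one quasi-likelihood fit over 17 libraries and 8 groups, with TMM scaling, after filterByExpr at a minimum count of 10, which kept 15365 genes. The fit had 9 residual degrees of freedom, and the spread between libraries of a group corresponded to a coefficient of variation of 0.333. There were 14 contrasts, with Benjamini-Hochberg adjustment over all genes in each and a threshold of 0.05. The edgeR fit was tested on simulated counts. Log2 CPM for correlations used a prior count of 2. Positions are from GENCODE M21 on GRCm38 (20102 of 20621 symbols matched), and promoter windows are from RefSeq (7 of 10 members). DESeq2 1.42.0, other scaling, no filter, fits of the compared groups, replicate blocks and left-out libraries were alternatives. From each other list, up to 4 called genes with the largest absolute log2 fold change could be named, and 2 genes of most similar level for each member. The members, gene lists and tests were chosen with earlier results of these data known.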

Additional observations from a re-analysis of the deposited data

How the results depend on the processing

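Across 25 alternative settings, 17 of which left out 1 library, 0 member values past the test changed sign, and 125 values changed sign where neither value passed. The number of members called moved as follows, with the share of all genes (for DESeq2, of those given an adjusted p) called by the same fit in brackets. DESeq2 called 4 members in mutant against WT at day 0 (4.75%) and 4 at day 1 (5.1%), 3, 3 and 4 in the mutant at days 1, 2 and 7 (5.34, 8.3 and 21.6%), and 2 in WT at day 2 (8%). A fit of only the compared groups called 0 in mutant against WT at day 1 (0.0325%), 4, 5 and 6 in the mutant at days 1, 2 and 7 (6.98, 10.9 and 35.9%), and 0 in WT at days 2 and 7 (0 and 0.781%). Without replicate 1 of WT days 0 and 1, 1 was called in mutant against WT at day 2 (0.103%), 2, 3 and 6 in the mutant at days 1, 2 and 7 (3.27, 5.6 and 18.4%), and 2 in WT at day 2 (2.2%). Without replicate 1 of WT day 2 as well, an alternative chosen after seeing the data, the counts were 1 in mutant against WT at day 2 (0.316%), 2 on average over days (19.4%), 3, 3 and 6 in the mutant (4.93, 8.14 and 22.2%), and 2 and 4 in WT at days 2 and 7 (2.7 and 11.3%). The cause of these changes was not tested. With 1 library left out at a time, the count ranged from 0 to 2 in mutant against WT at day 0, 0 to 5 at day 1, 0 to 2, 0 to 3 and 0 to 3 in the mutant at days 1, 2 and 7, and 0 to 2 in WT at day 2 and at day 7.

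Counting r over 0.1, same-numbered libraries deviated together in 6 of 6 pairs of WT groups (r 0.24 to 0.74). They did so in 1 of 6 mutant pairs (r -0.34 to 0.17) and in 10 of 16 pairs between genotypes (r -0.35 to 0.50). The numbers thus went together in every WT pair, rarely within the mutant and in part of the pairs between genotypes. The labels do not say what a number marks. With the replicate block over all libraries, 0 members were called in mutant against WT at day 1 (0.358%), 2 in the mutant at day 7 (16.6%) and 2 in WT at day 2 (2.88%). With the replicate block within WT alone, 1 was called in mutant against WT at day 0 (3.75%) and 4 at day 1 (4.52%), 3, 2 and 4 in the mutant at days 1, 2 and 7 (5.34, 8.66 and 25.1%), and 3 in WT at day 2 (9.69%).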
